A study of Mus musculus with 8 samples.

Results

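The genes described here are those of glycolysis, lactate transport and the response to low oxygen, taken as a fixed set of 35 symbols: the enzymes from glucose uptake to lactate, the regulators of phosphofructokinase, the lactate transporters with their chaperones, and the hypoxia-inducible factor (HIF) system with a few of its well known targets. All 35 were found by symbol among the 55276 genes listed in each deposited table, and none was picked by a threshold on its values. RNA had been sequenced from GFP+ fibro-adipogenic progenitors (FAPs), the mesenchymal progenitor cells of skeletal muscle, sorted from the tibialis anterior of mice aged 4 to 6 months after a freeze-pierce injury. Control mice were Osr1 flox/+ CAGG Cre+ and conditional knockout mice (Osr1cKO) were Osr1 flox/flox CAGG Cre+, so the controls also carried the Cre, received tamoxifen on the day of injury and the days after it, and had 1 floxed allele that recombination replaced with eGFP. CAGG Cre is ubiquitous and inducible by tamoxifen, so recombination was not limited to FAPs. Each genotype had 2 libraries at 3 days post injury (dpi) and 2 at 7 dpi, 8 libraries in all. The 3 dpi libraries held RNA of 1 mouse each and the 7 dpi libraries RNA of 4 pooled mice each, so day and pooling cannot be told apart, and neither can a possible change of sequencer that the study's methods name without tying it to a day.

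The authors deposited TPM, in which each gene's fragments are divided by its length and scaled to a fixed total, so that levels can be compared between genes. Exon lengths from GENCODE turned all 280 values of the 35 genes back into whole fragments within 0.001, and the libraries held between 36532997 and 51141501 fragments on genes. Levels are given here as scaled TPM, which is TPM divided by a scale factor per library between 0.924 and 1.05. The FAP markers were high: 14 of 14 were above 1 TPM and their sum lay between 33984 and 78559. Ptprc, which codes for the CD45 used to gate out blood cells, stayed between 0.0081 and 0.208 and the satellite cell gene Pax7 between 0 and 2.48. Some markers of other cells stood higher, with their top values at 7 dpi. Rgs5 of pericytes reached 68.8, Hbb-bs of red blood cells 35.3, Lyz2 of macrophages 34.8 and Myog of muscle cells 15.2. At 3 dpi, Osr1 itself was 100.1 and 89.9 in control against 69.4 and 69.4 in Osr1cKO. The values at 7 dpi were 73.1 and 76.5 against 64.8 and 58.6. The genotypes did not overlap on either day, but the difference in the level per gene was partial (log2 fold change −0.45, adjusted p = 0.741 at 3 dpi; −0.28, adjusted p = 0.327 at 7 dpi). A level per gene does not show which part of the transcript remained. The study itself reported that the floxed exon was efficiently deleted in its RNA-seq data and that the exon after it was not expressed. It also reported a strong drop of Osr1 mRNA in Osr1cKO FAPs by RT-qPCR at 3 dpi.

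Glycolysis splits glucose into pyruvate. Hexokinases trap glucose as glucose 6-phosphate, phosphofructokinase commits it to the pathway, and from glyceraldehyde 3-phosphate dehydrogenase onwards ATP and NADH are gained. Lactate dehydrogenase turns pyruvate into lactate to regain NAD+, and the monocarboxylate transporters MCT1 and MCT4, coded by Slc16a1 and Slc16a3, carry lactate across the membrane. These transporters reach the membrane only with a chaperone, basigin (Bsg) or embigin (Emb). When oxygen is plentiful the prolyl hydroxylases coded by Egln1 and Egln3 mark HIF-1α (Hif1a) and HIF-2α (Epas1) for degradation, and when it is scarce HIF accumulates and activates many of the genes described here. HIF is controlled mostly as a protein, so the mRNA of Hif1a says little about its activity. Proliferating cells also run glycolysis at a high rate.

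HIF binds DNA at the core sequences ACGTG and GCGTG, and these were looked for on both strands in the 250 bases before each RefSeq start site (assembly GRCm38.p6). A window was at hand for 32 of the 35 genes, and not for Bsg, Epas1 and Ndrg1. At least 1 core stood in a window of 28 of these 32, compared with 41.5% of 27025 genes. By window it was 36 of 46, compared with 38.6% of 32851 windows of the same length. Member windows also held more CG dinucleotides, with a median of 14 against 6 in all windows, and both cores contain a CG. Emb, Eno2, Gpi1 and Tpi1 had no match in these letters. The 5 windows printed below all hold a core and are examples. Ldha, Pgk1 and Slc16a3 were lower at 7 than at 3 dpi in control. Egln3 had the day change that differed most between genotypes before adjustment, and Adm was called between genotypes at 3 dpi. Eno2, with the largest day change, and Emb, called between genotypes at 7 dpi, held no core and are not printed. Each printed window is read 5′ to 3′ on the gene's own strand, with the cores in capitals. The window of Ldha is chr7:46845554-46845803 on the plus strand and lies before the upstream of its 2 start sites. That of Pgk1 is chrX:106186850-106187099 on the plus strand. Slc16a3 has chr11:120948817-120949066, also on the plus strand, and Egln3 has chr12:54203875-54204124 on the minus strand. Adm has chr7:110627407-110627656, on the plus strand. The windows of Ldha and Slc16a3 lie inside these genes as GENCODE bounds them, because GENCODE lists further transcripts that start upstream.
Ldha: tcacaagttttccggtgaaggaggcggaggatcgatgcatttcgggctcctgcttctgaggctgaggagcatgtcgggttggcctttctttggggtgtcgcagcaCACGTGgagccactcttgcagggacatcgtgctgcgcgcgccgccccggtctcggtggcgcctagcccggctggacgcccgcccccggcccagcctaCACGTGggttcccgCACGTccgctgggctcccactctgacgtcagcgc
Pgk1: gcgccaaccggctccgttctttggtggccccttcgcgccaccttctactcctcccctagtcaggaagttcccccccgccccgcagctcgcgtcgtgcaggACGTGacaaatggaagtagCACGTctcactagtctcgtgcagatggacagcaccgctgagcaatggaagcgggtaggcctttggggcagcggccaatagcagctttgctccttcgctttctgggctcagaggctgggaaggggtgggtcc
Slc16a3: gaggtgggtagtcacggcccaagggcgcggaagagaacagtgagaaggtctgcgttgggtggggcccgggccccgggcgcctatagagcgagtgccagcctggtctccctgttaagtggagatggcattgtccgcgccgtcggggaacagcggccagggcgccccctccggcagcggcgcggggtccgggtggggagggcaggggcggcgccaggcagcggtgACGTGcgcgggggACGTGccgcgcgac
Egln3: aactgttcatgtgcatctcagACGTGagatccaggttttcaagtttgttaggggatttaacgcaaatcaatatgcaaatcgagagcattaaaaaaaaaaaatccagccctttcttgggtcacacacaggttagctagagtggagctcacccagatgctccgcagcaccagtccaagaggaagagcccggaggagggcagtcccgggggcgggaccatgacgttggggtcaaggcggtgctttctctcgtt
Adm: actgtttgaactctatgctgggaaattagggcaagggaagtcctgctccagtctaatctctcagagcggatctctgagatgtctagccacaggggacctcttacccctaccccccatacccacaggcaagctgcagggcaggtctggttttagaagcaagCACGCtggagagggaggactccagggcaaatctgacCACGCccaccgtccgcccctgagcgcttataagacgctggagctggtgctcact
Ldha carried 5 matches, 4 of them from 2 copies of CACGTG, a palindrome that holds ACGTG on both strands and that other factors such as MYC also bind. Pgk1 carried 2 matches of ACGTG on opposite strands, at −150 and −131 from the start site, and Slc16a3 carried 2 of ACGTG at −27 and −14. Adm carried 2 of GCGTG, both on the opposite strand, at −90 and −54. The single ACGTG of Egln3 stood far upstream, at −229. A match is a description of letters and does not show that HIF was bound.

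The 35 genes spanned a wide range of levels. In control libraries at 3 dpi, Pkm, the pyruvate kinase gene, stood highest with a mean of 1224 ± 19.6 scaled TPM (SD, n = 2), ahead of Ldha at 1084 ± 53.3, Gapdh at 1071 ± 83.5 and Aldoa at 993 ± 55.2, which did not part from each other beyond their spread. Osr1cKO libraries kept the same order of these 4 genes at 3 dpi. At 7 dpi Bsg led in both genotypes, with 739 ± 57.9 in control and 778 ± 39.4 in Osr1cKO, and Pkm had dropped to the fifth place in control (387 ± 75.5) and to the fourth in Osr1cKO (552 ± 87.3). At the low end, Aldoc, the aldolase of brain, held between 0 and 20 fragments per library and was at or near 0 throughout. Ankrd37, a HIF-1 target, rested on 57 to 105 fragments and Egln3 on 93 to 259, so these carry more counting error than Gapdh with 18472 to 74344. Summed over the 15 enzymes of the hexose and triose steps, control libraries held 5196 and 5568 scaled TPM at 3 dpi and 2936 and 2389 at 7 dpi. Osr1cKO libraries held 5247 and 6459 at 3 dpi and 3553 and 3059 at 7 dpi. The days did not overlap in either genotype, whereas the genotypes overlapped at 3 dpi and not at 7 dpi.

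**Figure D1:**
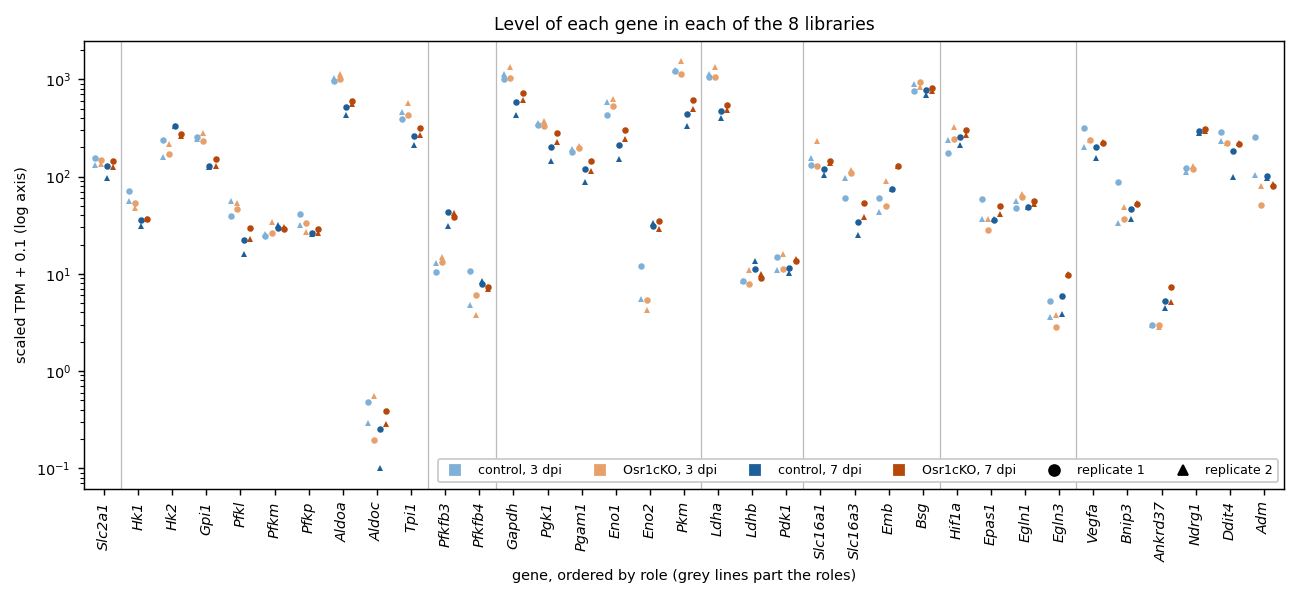
Scaled TPM + 0.1 on a log axis for each of the 35 genes in each of the 8 libraries, with colours for the groups and circles and triangles for replicates 1 and 2. The genes run from Aldoc, at most 0.452 scaled TPM, to Pkm, at up to 1541, and from Gapdh to Pkm and at Ldha the dark 7 dpi points lie below the pale 3 dpi points, except at Eno2.

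The clearest change was between the days. In control FAPs, 14 of the 35 genes were called lower and 5 higher at 7 than at 3 dpi, against 21.9% and 23.8% of 17371 genes tested. In Osr1cKO FAPs, 11 were called lower and 6 higher, against 19.3% and 20.7% of genes. A call needed a fold change over 1.2 and a Benjamini-Hochberg adjusted p under 0.05 in limma, fitted on all 8 libraries. The higher calls thus lay near the background share, and the lower calls above it. The 17 calls in Osr1cKO became 11 without its replicate 2 at 3 dpi and 9 without its replicate 2 at 7 dpi. The median log2 fold change of the 35 genes was −0.36 in control and −0.05 in Osr1cKO, while that of all genes tested was 0.06 and 0.08. The sign was positive for 11 of the 35 in control, compared with 54.3% of all genes, and for 15 in Osr1cKO, compared with 55.1%. Both changes moved with proliferation: the summed level of 30 proliferation genes was 1991 to 2666 scaled TPM at 3 dpi and 356 to 551 at 7 dpi, all 30 were above 1 TPM in at least 1 library, and its part in the day change was not tested. Sums of some marker lists of other cell types were also higher at 7 dpi. The myofiber list of 17 genes summed to 12.1 to 17.9 at 3 dpi and 57.0 to 113 at 7 dpi. In it Acta1 was 1.58 to 2.38 at 3 dpi and 13.6 to 31.0 at 7 dpi, and Tnnt3 3.49 to 8.61 and 16.6 to 31.0. The adult myosins Myh1, Myh2 and Myh4 stayed at 0.348 or less. The macrophage list of 18 genes summed to between 30.0 and 36.3 and between 71.4 and 105. The pericyte sum was 48.4 to 82.9 and 96.7 to 191, the muscle stem cell sum 16.6 to 33.6 and 39.7 to 84.3. The erythroid sum was 0.0482 to 1.80 and 11.8 to 52.4. The tenocyte sum had no such direction in Osr1cKO, with 7897 and 4267 at 3 dpi and 5356 and 4987 at 7 dpi. It was 2128 and 3762 against 4056 and 3643 in control. Within this list Tnc was lower at 7 dpi in Osr1cKO, with 6100 and 2723 against 2160 and 1502. Scx, Tnmd, Mkx, Thbs4, Fmod and Kera were all higher at 7 dpi without overlap in both genotypes. In Osr1cKO, Thbs4 was 1714 and 1499 against 2603 and 2764, and Tnmd 4.64 and 4.14 against 265 and 338. In sorted bulk samples, fewer cells of a kind and less RNA per cell cannot be told apart.

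Glucose uptake and the hexose steps held 10 of the genes. Slc2a1, the glucose transporter GLUT1, was 155 and 132 in control at 3 dpi and 129 and 97.3 at 7 dpi, and it was not called in either genotype (log2 fold change −0.35 in control and −0.05 in Osr1cKO). The hexokinases went opposite ways. Hk1, the housekeeping isoform, fell in control from 70.4 and 56.3 to 35.6 and 30.8 (log2 fold change −0.91, adjusted p = 0.00204) and in Osr1cKO from 52.8 and 47.9 to 36.1 and 36.2 (−0.46, adjusted p = 0.0306). Hk2, the inducible isoform of muscle and proliferating cells, rose in control from 237 and 160 to 328 and 335 (0.77, adjusted p = 0.0167). In Osr1cKO it was 171 and 217 at 3 dpi and 274 and 263 at 7 dpi, which was not called (0.48, adjusted p = 0.0879). Gpi1, which isomerises glucose 6-phosphate, fell in both genotypes (−0.99 and −0.87).

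The phosphofructokinases parted by isoform. Pfkl, the liver-type subunit, fell in control from 39.5 and 56.4 to 22.0 and 15.8 scaled TPM (−1.29, adjusted p = 0.00389) and in Osr1cKO from 46.7 and 53.6 to 29.8 and 22.9 (−0.91, adjusted p = 0.0179). Pfkp, the platelet type, fell in control (−0.48, adjusted p = 0.0475) and was not called in Osr1cKO (−0.10), with an interaction that did not pass (adjusted p = 0.852). Pfkm, the muscle type, was 24.2 to 33.7 at 3 dpi and 29.0 to 31.7 at 7 dpi over both genotypes, and was not called. Aldoa, which cleaves fructose 1,6-bisphosphate, fell from 954 and 1032 to 521 and 432 in control (−1.06, adjusted p = 0.00148) and from 1003 and 1144 to 592 and 559 in Osr1cKO (−0.90, adjusted p = 0.00359). Tpi1, the triose phosphate isomerase gene, fell as well (−0.84 and −0.77).

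Of the regulators of phosphofructokinase, Pfkfb3 rose and Pfkfb4 was not called. Pfkfb3 makes fructose 2,6-bisphosphate, the strongest activator of the enzyme, and went from 10.3 and 12.7 to 43.4 and 30.9 scaled TPM in control (1.60, adjusted p = 0.00079) and from 13.2 and 14.7 to 38.4 and 42.5 in Osr1cKO (1.47, adjusted p = 0.00154). Every 7 dpi library was thus above every 3 dpi library, in the direction opposite to most enzymes. Pfkfb4, its close relative, lay at 3.65 to 10.7 at 3 dpi and 6.81 to 8.28 at 7 dpi.

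Of the triose steps, the part of glycolysis that yields ATP, 5 of 6 genes fell in control and 4 of 6 in Osr1cKO, and Eno2 rose. Pkm fell in control from 1210 and 1238 scaled TPM to 440 and 333 (log2 fold change −1.67 ± 0.21 SE, adjusted p = 0.00108) and in Osr1cKO from 1148 and 1541 to 614 and 491 (−1.28 ± 0.21 SE, adjusted p = 0.00379). Eno1, the common enolase, fell from 430 and 585 to 210 and 153 in control (−1.48 ± 0.21 SE, adjusted p = 0.00186) and from 535 and 631 to 300 and 246 in Osr1cKO (−1.10 ± 0.21 SE, adjusted p = 0.00741). Gapdh, often used as a reference gene, fell from 1012 and 1130 to 582 and 432 in control (−1.09, adjusted p = 0.00455) and from 1036 and 1327 to 720 and 617 in Osr1cKO (−0.81, adjusted p = 0.0168). Pgk1, which makes the first ATP of the pathway, fell in control from 337 and 353 to 201 and 143 (−1.02, adjusted p = 0.00414). In Osr1cKO it was 327 and 373 at 3 dpi and 280 and 228 at 7 dpi, which did not pass (−0.46, adjusted p = 0.079). Pgam1, the phosphoglycerate mutase gene, fell in both (−0.86 and −0.64).

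Eno2, the enolase first known from neurons, went the other way and had the largest day change of all 35 genes. It rose in control from 12.0 and 5.36 to 30.7 and 32.9 scaled TPM (1.85 ± 0.31 SE, adjusted p = 0.00345) and in Osr1cKO from 5.26 and 4.19 to 34.9 and 28.5 (2.51 ± 0.31 SE, adjusted p = 0.00155). Its share of the summed enolase TPM was 2.72% and 0.908% in the control libraries at 3 dpi and 12.8% and 17.7% at 7 dpi, while Osr1cKO had 0.973% and 0.659% against 10.4% and 10.4%. Reads of Eno1 can be split with its near-identical copy Eno1b, which stood at 113 scaled TPM in control replicate 1 at 3 dpi and between 1.19 and 9.84 in the other 7 libraries. The sum of both was 543 and 593 in control at 3 dpi, closer together than Eno1 alone, and 220 and 154 at 7 dpi. Other named copies of Aldoa, Gapdh, Pgk1, Pgam1 and Ldha stayed at or below 3.56 scaled TPM. Pkm shares 15.3% of its exon length with a same-strand gene model, Gm49759, that stood between 17.5 and 70.1 TPM.

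**Figure D2:**
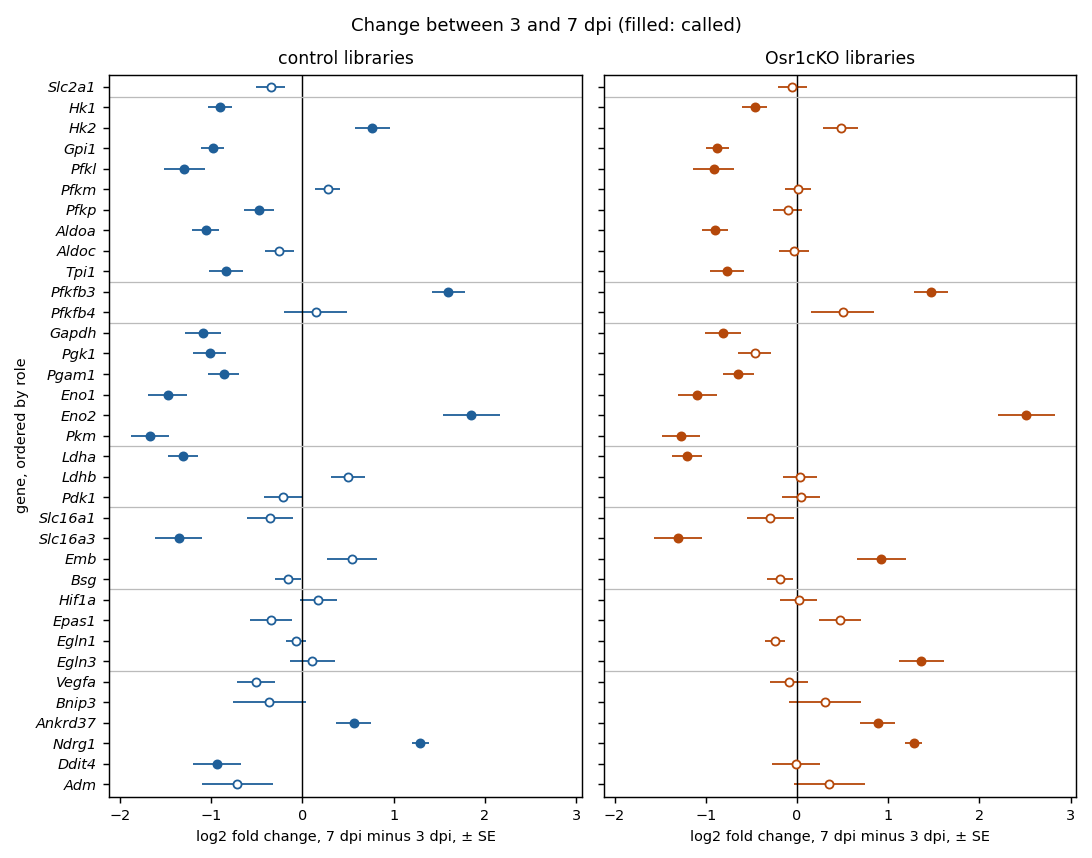
Log2 fold change from 3 to 7 dpi with its standard error for each of the 35 genes, in control (left) and Osr1cKO libraries (right), filled where called. Pkm and Eno1 lie far to the left in both panels and Eno2 and Pfkfb3 far to the right, while Egln3 is at 0.11 in control and 1.36 in Osr1cKO.

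Downstream of pyruvate, Ldha, which makes lactate, fell in control from 1047 and 1122 scaled TPM to 469 and 404 (−1.31 ± 0.16 SE, adjusted p = 0.00108) and in Osr1cKO from 1048 and 1337 to 547 and 479 (−1.21 ± 0.16 SE, adjusted p = 0.00207). Ldhb, the heart form that favours pyruvate, was not called, with 8.34 and 8.31 at 3 dpi and 11.1 and 13.4 at 7 dpi in control (0.50, adjusted p = 0.0646). It made up 0.734% to 0.812% of the lactate dehydrogenase TPM at 3 dpi and 1.62% to 3.20% at 7 dpi. Pdk1, a kinase that inhibits pyruvate dehydrogenase, lay between 10.1 and 15.9 in all libraries and was not called between days.

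Among the lactate transporters, only Slc16a3 was called between days. It fell in control from 60.2 and 97.3 scaled TPM to 34.2 and 25.0 (−1.36 ± 0.26 SE, adjusted p = 0.00541) and in Osr1cKO from 109 and 118 to 52.9 and 38.7 (−1.30 ± 0.26 SE, adjusted p = 0.00781). Slc16a1 was 130 and 156 against 118 and 105 in control, with wide spread in Osr1cKO at 3 dpi (128 and 232). MCT4 mRNA hence made up 31.6% to 46.0% of the sum of both transporters at 3 dpi and 19.3% to 26.8% at 7 dpi. Bsg, the main chaperone, lay between 698 and 936 throughout and was not called. Emb, the other chaperone, rose in Osr1cKO from 49.5 and 90.4 to 128 and 128 (0.92, adjusted p = 0.0323), and was 60.0 and 42.7 against 74.5 and 74.2 in control (0.55, adjusted p = 0.139).

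Of the HIF genes themselves, Egln3 was the one called between days, in Osr1cKO. Hif1a lay at 175 to 322 scaled TPM at 3 dpi and 209 to 303 at 7 dpi, Epas1 between 28.1 and 58.5 and between 35.3 and 49.2, and Egln1 between 46.9 and 65.8 and between 48.3 and 55.3, with no call in either genotype. Egln3 rose in Osr1cKO from 2.71 and 3.68 to 9.70 and 9.76 (1.36 ± 0.24 SE, adjusted p = 0.00531) and was 5.09 and 3.53 against 5.77 and 3.74 in control (0.11 ± 0.24 SE, adjusted p = 0.735). The control value turned negative without scaling (−0.01), without control replicate 2 at 3 dpi (−0.10) and without control replicate 1 at 7 dpi (−0.15).

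The 6 HIF-linked targets outside glycolysis split. Ndrg1, a stress-induced gene of differentiation, rose in control from 121 and 112 scaled TPM to 292 and 281 (1.29, adjusted p = 0.000232) and in Osr1cKO from 119 and 129 to 309 and 296 (1.28, adjusted p = 0.000512). Ankrd37 rose from 2.88 and 2.88 to 5.15 and 4.34 in control (0.56, adjusted p = 0.048) and from 2.87 and 2.73 to 7.14 and 5.08 in Osr1cKO (0.89, adjusted p = 0.0109). Ddit4, an inhibitor of mTORC1 signalling, fell in control from 285 and 229 to 182 and 97.9 (−0.93, adjusted p = 0.0246) and was 220 and 220 against 214 and 221 in Osr1cKO (−0.01). Vegfa, the endothelial growth factor, Bnip3, a mitophagy receptor, and Adm, the vasodilator peptide adrenomedullin, were not called between days.

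At 3 dpi 1 of these genes was called between the genotypes. The threshold at this day was that of the study's methods. A call needed a fold change over 1.2 with p below 0.05 before adjustment, by which 368 of 15699 genes (2.34%) were higher and 639 (4.07%) lower in Osr1cKO. At an adjusted p under 0.1, 0 genes were called by limma and 0 by limma-voom, and the 1007 genes of the rule above had p below 0.05 before adjustment. Of the 35 members, 0 were called higher and 1, Adm, lower. Adm was 255 and 103 scaled TPM in control and 51.4 and 79.4 in Osr1cKO (log2 fold change −1.33 ± 0.46 SE, adjusted p = 0.747). The groups did not overlap, but the control libraries lay far apart and the size rested on the first of them: without control replicate 1 the value was −0.68 and the call was lost, and without control replicate 2 it was −1.98. The call was also lost without Osr1cKO replicate 1 (−1.02) and without a filter on low genes.

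Control replicate 1 at 3 dpi stood apart in several HIF-linked genes, not only in Adm. Bnip3 was 87.2 in that library and 32.8 in the other control, Pfkfb4 10.7 and 4.67, and Eno2 12.0 and 5.36, so that 4 of the 35 genes differed over 2-fold between the control replicates at 3 dpi, while 0 did so in each of the other groups. Vegfa (313 and 203), Epas1 (58.5 and 36.3) and Hk2 (237 and 160) were also high in it. Pkm, Ldha, Gapdh and Aldoa were not. The same library had the lowest FAP marker sum (33984, the others 45244 to 50764 at 3 dpi). Col1a1, Col1a2 and Col3a1 made up most of it, at 11824, 4557 and 6102 in this library. These collagens, Cd34, Lum, Dpt and Tcf7l2 were lowest of the day in it. Pdgfra (348), Ly6a (5154), Gsn (3499), Dcn, Dpp4 and Osr1 were highest of the day in it. It also had the highest endothelial sum of its day (46.1, the others 19.6 to 25.5). That sum was carried by Kdr (16.1, and 2.23 in the other control) and Tek (24.2 and 16.3). Without both, left out after their values were seen, it was 5.86, and 6.94 in the other control. Pecam1 was 1.13 and 1.08, Cdh5 0.783 and 1.11 and Egfl7 1.67 and 3.21 in these libraries, and of the 10 endothelial markers 8 were above 1 TPM in at least 1 of the 8 libraries. The part of these in the levels was not tested. Called members went from 1 to 0 without this library, and to 11 without the other control, with 3 higher (Egln1, Hif1a and Slc16a3) and 8 lower (Adm, Bnip3, Ddit4, Eno2, Epas1, Hk1, Pfkfb4 and Vegfa). Calls over all genes then also rose, to 8.35% higher and 10% lower, so the higher members lay near the background share.

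The log2 fold change was above 0 for 21 of the 35 members at 3 dpi, compared with 52.1% of all genes. The remaining 34 genes gave no call, and their log2 fold changes ran from −0.68 for Eno2 to 0.56 for Slc16a3. Slc16a3 was 60.2 and 97.3 in control and 109 and 118 in Osr1cKO, which did not overlap (adjusted p = 0.812). Hif1a was 175 and 240 against 244 and 322 (0.45, adjusted p = 0.838) and Egln1 46.9 and 56.1 against 61.5 and 65.8 (0.31, adjusted p = 0.834). In all, 6 members were higher and 5 lower in Osr1cKO without overlap of libraries, against 17.6% and 18.3% of genes, close to the background. For the enzymes the interval of the difference was wide: that of Ldha ran from −0.42 to 0.68 on the log2 scale and that of Pkm from −0.47 to 0.79.

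**Figure D3:**
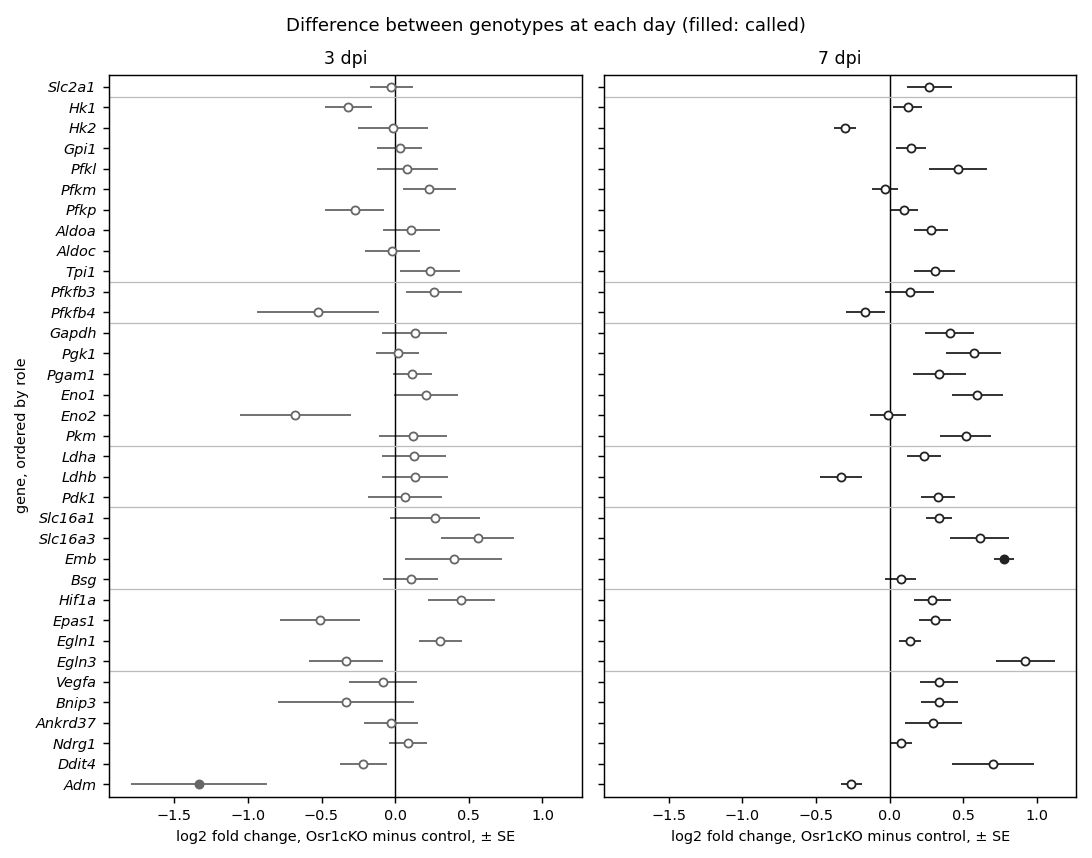
Log2 fold change of Osr1cKO against control with its standard error for the 35 genes at 3 dpi and the 34 tested at 7 dpi, filled where called. At 3 dpi the points scatter about 0 and Adm stands alone at −1.33; at 7 dpi 28 of 34 lie right of 0 and Emb, at 0.78, is the called gene.

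At 7 dpi most of these genes were at a higher level in Osr1cKO than in control FAPs, but by small amounts. The log2 fold change was above 0 for 28 of the 34 members tested, compared with 51.7% of all 16578 genes, and its median was 0.29 compared with 0.01. Replicates of 1 genotype also differed one-sidedly: 28 of the 35 members were higher in replicate 1 than in replicate 2 of control at 7 dpi, with a median absolute log2 difference of 0.21 (0.13 for all genes), and 24 were in Osr1cKO, with 0.13 (0.14 for all genes). Leaving out 1 library at a time kept the median between 0.15 and 0.41 and 28 or 29 of the 34 stayed above 0. Left unscaled, the median of all genes moved to 0.11 and that of the members to 0.41, so that the members stood 0.30 above all genes without scaling and 0.28 with it. A call at this day needed a fold change over 1.2 and an adjusted p under 0.1, which 3 genes (0.0181%) reached in the higher and 8 (0.0483%) in the lower direction, and of the members 1 gene, Emb, was called higher and 0 lower. Before adjustment, p was below 0.05 with the same fold for 12 members higher and 1 lower, against 5.4% and 5.75% of genes. These 13 genes, other than Emb, are not called, and their values are given as such. Without control replicate 1, 8 members were called higher, Ddit4, Egln3, Emb, Eno1, Pgk1, Pkm, Slc16a3 and Vegfa, when 1.32% of all genes were, and without either Osr1cKO library 0 were.

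The mRNA of proliferation genes moved with the genotype at this day: the summed level of the 30 genes was 455 and 356 scaled TPM in control and 551 and 529 in Osr1cKO. The study's Ki67 labelling of FAPs at 7 dpi went the other way and was much lower in Osr1cKO. It was a protein measure on cells sorted by the study's general gate for FAPs, while the RNA came from GFP+ FAPs. Why the 2 measures differed was not tested, and this mRNA sum does not show how many cells divided. The myofiber sum went the other way, with 113 and 92.9 in control and 59.1 and 57.0 in Osr1cKO, and the FAP sum was 69686 and 78559 against 67524 and 64101. The tenocyte list of 7 genes summed to 4056 and 3643 in control and 5356 and 4987 in Osr1cKO, with Tnmd, a marker of mature tenocytes, at 70.3 and 150.3 against 265 and 338. The macrophage sum was 71.4 and 73.4 against 85.3 and 105. Without Cd14, left out after its values were seen, it was 58.1 and 62.8 against 58.4 and 80.7, which overlapped. Cd163 and Ccr2 were at 0.186 or less throughout. Lyz2 was 25.9 and 22.6 against 19.6 and 34.8, and C1qb 6.09 and 7.56 against 6.15 and 9.41, which overlapped. Cd68 of the same list was higher in Osr1cKO without overlap, with 13.5 and 14.6 against 15.6 and 16.8. So was Csf1r, with 0.887 and 1.16 against 1.52 and 1.93. Spi1 and Ptprc were also higher without overlap, at 1.12 or less. Ly6c2 and Cd163 were lower without overlap, at 0.696 or less at 7 dpi. Control replicate 1 at 7 dpi stood above control replicate 2 in the muscle stem cell sum (84.3 and 39.7) and the pericyte sum (191 and 96.7). In these 2 libraries Pax7 was 2.48 and 0.182, Myog 15.2 and 2.07 and Rgs5 68.8 and 13.1. The Osr1cKO libraries had muscle stem cell sums of 49.0 and 46.0 and pericyte sums of 116 and 145. The endothelial sum overlapped, with 56.3 and 69.9 in control and 54.5 and 75.7 in Osr1cKO. Without Kdr and Tek, left out after their values were seen, it was 12.9 and 12.1 against 16.6 and 17.4, which did not overlap. The part of these lists in the genotype difference was not tested.

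Emb had the smallest adjusted p of the members at 7 dpi. At 7 dpi it was 74.5 and 74.2 scaled TPM in control against 128 and 128 in Osr1cKO, on 3795 to 8836 fragments over all 8 libraries. The log2 fold change was 0.78 ± 0.07 SE, a fold of 1.71, with an adjusted p of 0.0961, and it ran from 0.77 to 0.78 with each library left out. The adjusted p lay just inside the threshold, and the call was lost without either Osr1cKO library, without scaling, with a filter on a mean TPM of at least 1 or none, and with all 8 libraries in 1 fit. At 3 dpi Emb was 60.0 and 42.7 in control and 49.5 and 90.4 in Osr1cKO, which overlapped (0.40, adjusted p = 0.888), and the interaction did not pass (adjusted p = 0.929). Embigin's share of the summed chaperone TPM was 8.71% and 9.61% in control and 13.7% and 14.6% in Osr1cKO at 7 dpi. A gene on the opposite strand that shares 9.93% of its exon length, Gm17509, stood at 0.394 TPM or less.

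The transporters that embigin and basigin accompany had the same sign. Slc16a1 was 118 and 105 scaled TPM in control and 144 and 137 in Osr1cKO at 7 dpi (0.34 ± 0.09 SE, adjusted p = 0.302). Slc16a3 was 34.2 and 25.0 in control and 52.9 and 38.7 in Osr1cKO (0.61 ± 0.20 SE, adjusted p = 0.345). For both, the genotypes did not overlap. Bsg did overlap, with 780 and 698 against 806 and 750 (0.08, adjusted p = 0.805).

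In the HIF system, Egln3 had the largest difference of all members at 7 dpi. It was 5.77 and 3.74 scaled TPM in control and 9.70 and 9.76 in Osr1cKO (0.92 ± 0.20 SE, adjusted p = 0.269). At 3 dpi it was 5.09 and 3.53 against 2.71 and 3.68 (−0.33, adjusted p = 0.884), and among the members its interaction of genotype and day had the smallest p (adjusted p = 0.611). Hif1a was 256 and 209 against 303 and 265 at 7 dpi (0.29, adjusted p = 0.419), Epas1 35.3 and 36.8 against 49.2 and 40.9 (0.31, adjusted p = 0.363) and Egln1 48.3 and 49.1 against 55.3 and 52.2 (0.14, adjusted p = 0.495). All 4 genes of this role were without overlap in the higher direction at 7 dpi, where 23.8% of all genes were, and 2 at 3 dpi, where 17.6% were. By limma-voom on the recovered fragments, Egln3 was called beside Emb, where 0.501% of all genes were called higher.

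Among the HIF-linked targets, Ddit4 was 182 and 97.9 in control and 214 and 221 in Osr1cKO (0.70 ± 0.28 SE, adjusted p = 0.392), with the control libraries far apart. Vegfa was 200 and 156 against 219 and 229 (0.34, adjusted p = 0.381) and Bnip3 46.8 and 36.8 against 51.8 and 53.6 (0.34, adjusted p = 0.378). Adm again had the opposite sign, with 101 and 96.6 in control and 80.8 and 83.5 in Osr1cKO (−0.26 ± 0.07 SE, adjusted p = 0.31), a fold just short of 1.2. Ndrg1 and Ankrd37 were at 0.08 and 0.30.

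**Figure D4:**
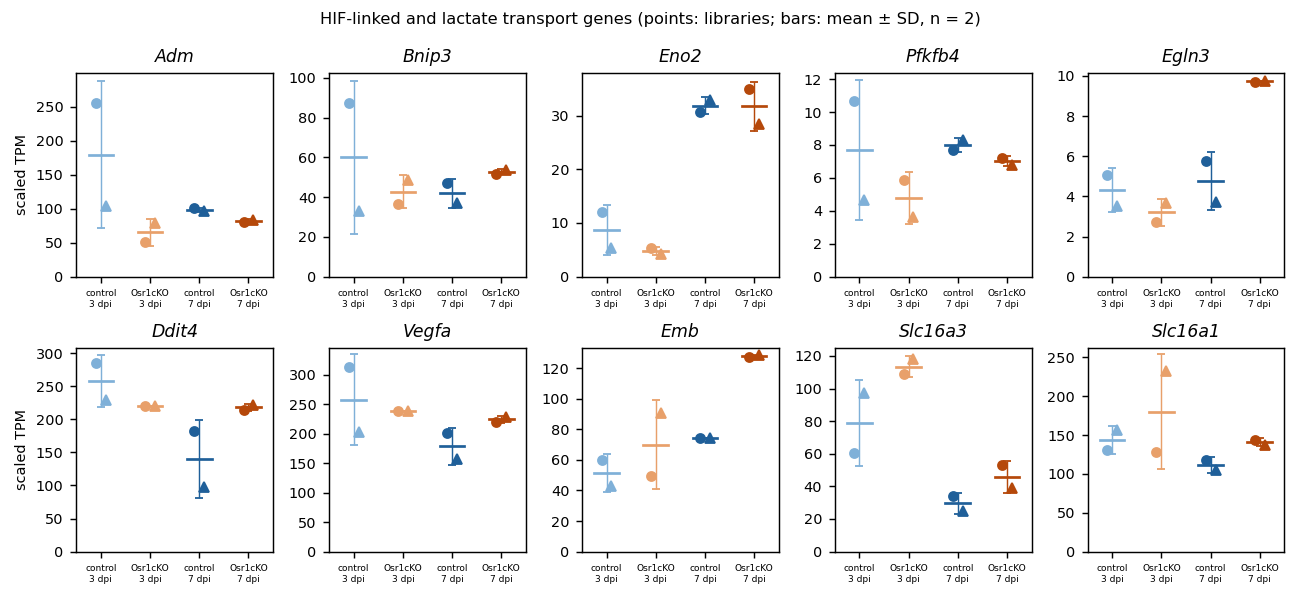
Scaled TPM of 10 HIF-linked and lactate transport genes in each library (points), with the mean and SD of the 2 libraries of a group (bars). Control replicate 1 at 3 dpi is the top point for Adm, at 255, and for Bnip3, at 87.2, and the Osr1cKO libraries at 7 dpi, both at 128, lie above all others for Emb.

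Of the enzymes at 7 dpi, Eno1, Pgk1 and Pkm, all of the triose steps, had the largest differences. Pgk1 was 201 and 143 scaled TPM in control and 280 and 228 in Osr1cKO (0.57 ± 0.19 SE, adjusted p = 0.342). Eno1 was 210 and 153 against 300 and 246 (0.60 ± 0.18 SE, adjusted p = 0.322), and Pkm 440 and 333 against 614 and 491 (0.52 ± 0.17 SE, adjusted p = 0.349). For Gapdh, with 582 and 432 against 720 and 617, the value was 0.41 (adjusted p = 0.403), and Pgam1 overlapped (119 and 87.3 against 146 and 114). In each of these 5 genes control replicate 2 was the lowest of the 4 libraries, and without it the values were 0.33 for Pgk1, 0.37 for Eno1, 0.32 for Pkm, 0.20 for Gapdh and 0.12 for Pgam1, the last from 0.34. Enolase 2 did not share the direction (Eno2, −0.01), and Pfkl was 22.0 and 15.8 against 29.8 and 22.9 (0.46, adjusted p = 0.413).

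The hexokinases differed in sign at 7 dpi. Hk2 was 328 and 335 scaled TPM in control and 274 and 263 in Osr1cKO (−0.30 ± 0.07 SE, adjusted p = 0.288), the lone member below control at the unadjusted threshold. Hk1 was 35.6 and 30.8 against 36.1 and 36.2 (0.12, adjusted p = 0.645), and its share of the hexokinase TPM was 9.79% and 8.43% in control and 11.6% and 12.1% in Osr1cKO. Ldha was 469 and 404 against 547 and 479 (0.23, adjusted p = 0.467), and Ldhb 11.1 and 13.4 against 8.99 and 9.97 (−0.33, adjusted p = 0.416). Pdk1 was 11.5 and 10.1 against 13.5 and 14.1 (0.33, adjusted p = 0.367). In all, 22 members were higher without overlap of libraries and 4 lower, against 23.8% and 22.1% of genes.

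**Figure D5:**
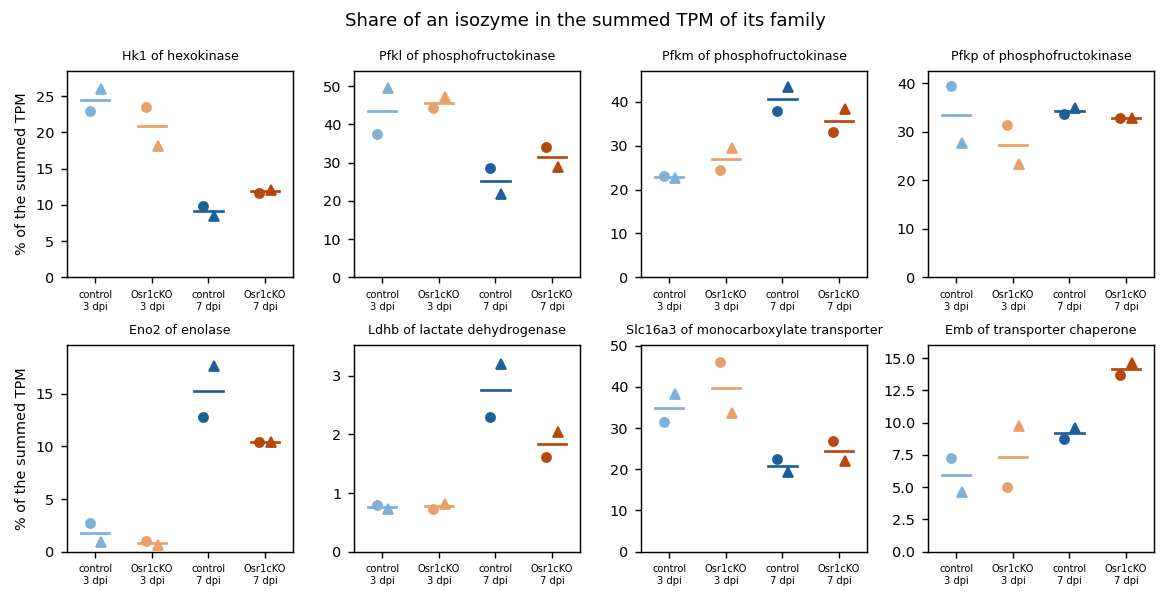
Share of 8 isozymes in the summed TPM of their family, in percent, for each library (points) and as the group mean (bars). The share of Hk1 is 18.1% to 26.0% at 3 dpi and 8.43% to 12.1% at 7 dpi, that of Eno2 at most 2.72% at 3 dpi and at least 10.4% at 7 dpi, and that of Pfkm at 22.7% to 29.6% at 3 dpi and 33.1% to 43.4% at 7 dpi.

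Whether the genotype difference itself changed between days was tested with the interaction term over all 8 libraries. At an adjusted p under 0.05, 0 of 17371 genes passed in limma and 0 in limma-voom, and 1191 genes had an unadjusted p under 0.05. The term was above 0 for 27 of the 35 members, compared with 51% of all genes. Of the members, 3 had p below 0.05 before adjustment in the direction of a larger Osr1cKO value at 7 dpi and 0 in the other, against 3.75% and 3.1% of genes: Egln3 (1.25), Epas1 (0.82) and Ddit4 (0.92). The higher levels at 7 dpi are therefore not shown to be particular to that day.

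The other genes of the same pathways were counted from 4 lists, to be read against the shares of all genes called between days, 23.8% higher and 21.9% lower in control and 20.7% and 19.3% in Osr1cKO. Of 38 further genes of glycolysis and pyruvate use, 28 were tested between days. In control 5 were called higher and 10 lower, and in Osr1cKO 5 and 8. Dlat, a subunit of pyruvate dehydrogenase, and Pck2, the mitochondrial phosphoenolpyruvate carboxykinase, fell in control (−0.95 and −1.12) and Pdk2, a kinase that inhibits pyruvate dehydrogenase, rose (1.07). In Osr1cKO the genes of smallest p were Dlat (−0.87), Pck2 (−0.87) and Tigar (−1.02), which lowers fructose 2,6-bisphosphate. Of 19 genes of the pentose phosphate pathway and glycogen, 8 were called lower in each genotype, with 4 higher in control and 3 in Osr1cKO. Tkt, Pgd and G6pdx, enzymes of the pentose phosphate pathway, led in control (−1.50, −1.56 and −1.66). In Osr1cKO, Ppp1r3c, which targets a phosphatase to glycogen, rose (1.80) and Tkt and Pgd fell (−1.18 and −1.24).

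Of 14 further regulators of HIF, 2 were called higher and 1 lower in control, and 1 and 1 in Osr1cKO. Vhl, which recognises hydroxylated HIF, rose by 0.43 and 0.51, Egln2, the other prolyl hydroxylase gene, fell by 0.34 and 0.38, and Arnt, the partner of HIF-1α, rose in control by 0.38, all on the log2 scale. Of 46 further hypoxia-induced genes 44 were tested, with 12 higher and 7 lower in control, near the shares of all genes, and 15 and 7 in Osr1cKO. Among the smallest p were those of Anln and Zfp292 in control (−2.80 and 1.09) and of Anln, Kdm3a and Ccng2 in Osr1cKO (−2.27, 1.26 and 1.85). Anln acts in cytokinesis and is found in proliferating cells, and Kdm3a is a histone demethylase.

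Between genotypes at 3 dpi, 5 of the 102 listed genes tested were called, 2 higher and 3 lower, against 2.34% and 4.07% of all genes. Plod2 and Car12, a collagen lysyl hydroxylase and a carbonic anhydrase, were higher in Osr1cKO (0.73 and 0.76), and Car9, Hilpda and Cited2 were lower (−0.62, −0.42 and −0.38), with Car9 at 1.36 scaled TPM or less. Cited2 belongs to the regulators of HIF and the others to the hypoxia-induced genes. At 7 dpi, 0 of 103 passed an adjusted p under 0.1 in limma and 4 in limma-voom, all higher. Limma-voom called 0.501% of all genes higher and 0.813% lower at this day. Before adjustment, 12 were higher and 6 lower with p below 0.05 and the same fold, against 5.4% and 5.75% of all genes. Car12 had the largest difference, with 3.45 and 1.39 scaled TPM in control and 10.4 and 7.74 in Osr1cKO (1.62, adjusted p = 0.251). It was named after its value was seen. The median log2 fold change over the 103 genes was 0.07, against 0.29 for the members.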

How the data were processed

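RNA-seq was performed on 8 libraries of FAPs, 2 per genotype and day. Per the study's methods, read pairs of stranded libraries were mapped with STAR (mm10). The authors deposited TPM, calculated from fragment counts normalized with DESeq2, and the counter, its annotation and its strand setting are not given in the sources used here. Genes on opposite strands that overlap, such as Pfkp and Pitrm1, are thus uncertain. Each table held 55385 entries, and 109 further entries of 106 repeated symbols were left out, among them a further Aldoa entry at 2.87 TPM or less.

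Exon lengths from GENCODE release 21 of the mouse gave whole fragments within 0.02 for 98.7% to 98.9% of values under 50 fragments. This set the depth. Scale factors for TPM came from log ratios averaged after trimming 30% from each end, over the 8 libraries together, a choice settled after the files were seen. Genes with at least 10 fragments in 2 libraries and 15 in all were kept (a mean TPM of at least 1 where no length was known), and log2(scaled TPM + 1) was tested with lmFit and eBayes with a trend in limma 3.58.1 (R 4.3.3). Fold changes are on this scale, which understates those of low genes. Genotypes were compared on the 4 libraries of a day, and days and the interaction on all 8. The fit on all 8 gave each gene 1 spread, though replicates lay further apart at 3 than at 7 dpi. Against counting noise, the mean chi-square per gene was 256 in control and 136 in Osr1cKO at 3 dpi. It was 27.1 and 33.6 at 7 dpi. The p-values for days and the interaction do not account for this. Thresholds for genotype were those of the study's methods. The procedure was tested on simulated data. Tables and figures were made with Python 3.11.15, pandas 2.3.3, NumPy 2.4.6 and matplotlib 3.10.9, and promoter windows were taken from RefSeq.

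Members, lists, the filter and the other settings were chosen with earlier results of these data known, among them that a filter on mean TPM left no member called at 7 dpi. Replicate libraries differed by more than counting noise, so each was counted once. All 35 members are described. Full statistics are given for members called between genotypes and for the 8 with the largest change between days, and from each list of other genes at most 3 per comparison are named, those with the smallest p. The values of 1 gene that this rule names are not reported here. Intervals of a difference are 95% intervals from limma. Alternatives were other scalings, filters, pseudocounts, thresholds and libraries in the fit, limma-voom on recovered fragments, robust eBayes, the replicate number as a block, and leaving out each library. Reads, splicing and protein levels were not analysed here.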

Additional observations from a re-analysis of the deposited data

Results flagged for a closer look

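Hk1 and Ddit4 were the members whose libraries parted between genotypes on both days, in opposite directions. Hk1 was lower in Osr1cKO at 3 dpi (log2 fold change −0.32) and higher at 7 dpi (0.12), and Ddit4 was lower at 3 dpi (−0.22) and higher at 7 dpi (0.70). Over all genes, 18.3% were lower in Osr1cKO without overlap at 3 dpi and 23.8% were higher without overlap at 7 dpi. The share of all genes that did both was not counted, so the pattern is not shown to be particular to these members. This pattern of non-overlapping libraries is not itself a test of the difference. In the interaction test over all genes, Hk1 had adjusted p = 0.736, and Ddit4 had adjusted p = 0.714, so neither passed.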

How the results depend on the processing

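At 3 dpi the count of members called, 1 as reported, was 0 without a filter or at an adjusted p under 0.1, 3 with the replicate block or with all 8 libraries in 1 fit, and between 0 and 11 with each library left out. At 7 dpi it was 0 without scaling, with a mean TPM of at least 1, without a filter, with the replicate block and with all 8 libraries in 1 fit, 2 by limma-voom, 13 at an unadjusted p under 0.05, and between 0 and 8 with each library left out. Between days it stayed within 1.5 times of 19 in control, and in Osr1cKO it lay between 9 and 19 with each library left out. The interaction gave 3 members at an unadjusted p under 0.05 and 0 otherwise. By limma-voom at 7 dpi, 0.501% of all genes were called higher and 0.813% lower. For the replicate blocks, the fit of all 8 libraries and the left-out libraries, no share of all genes stands beside these counts here. Such counts alone do not set the members apart from all genes. The change of Egln3 between days in control, 0.11, was −0.0114 without scaling and between −0.15 and 0.37 with each library left out. The causes were not tested. Replicate numbers did not pair the samples: deviations of same-numbered libraries correlated at −0.117 at 3 dpi and 0.0652 at 7 dpi across 17371 genes, so the replicate block shares only a number. A crossed replicate block at 3 dpi, added after the data were seen, called 2 members. Scaling within a day, also added then, called the same number of members as reported. With 2 libraries per group, small differences of low genes such as Ankrd37 could not be resolved.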
